A study of Homo sapiens with 30 samples.

Results

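Interferon-stimulated genes are the genes that cells switch on when interferon, a secreted antiviral cytokine, binds its receptor. Here 53 of them were followed by symbol in RNA-seq counts of a human brain endothelial cell line. A gene of the list was kept when it had 10 or more counts in at least 3 libraries. All 53 were found, each in 1 row of the table, and all 53 were kept, out of 16924 genes that passed that limit among 63138 genes. The lowest counts belonged to RIGI and IRF9, which were still inside the limit.

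In the textbook pathway, interferon receptors activate the kinases JAK1 and TYK2, and the signal reaches DNA through a complex that contains STAT2 and IRF9. That complex binds the interferon-stimulated response element (ISRE) in target promoters, while other signal transducers bind gamma-activated sites (GAS), and IRF1 and IRF7 are transcription factors that are themselves induced and extend the response. The products recognise viral RNA, block viral entry or translation, or tag proteins with the ubiquitin-like ISG15, and in brain vessels this programme is part of the response of the blood-brain barrier to infection and inflammation.

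The cells were hCMEC/D3, an immortalised line from human brain microvessels that is often used as a model of the blood-brain barrier, and all libraries come from this line. In the direct arm, cells were exposed for 12 h to serum-free medium (Control), TNF at 25 ng/mL, IL1b at 10 ng/mL, the complement fragment C5a at 50 ng/mL, or Epinephrine at 200 nM. In the vesicle arm, cells of the line were given vesicles, the small membrane particles that cells release, which had been enriched from medium of cells exposed in those same ways, which gave the 5 groups named with the prefix EV (EV-Control after serum-free medium, EV-TNF after TNF, and likewise EV-IL1b, EV-C5a and EV-Epinephrine). The labels give 12 h for the vesicle groups as well. Each of the 10 groups had 3 libraries, no group was given interferon, and the vesicle dose is not given in the sources used here. The labels do not say whether the 3 libraries came from separate cultures, so p-values measure only the spread between these samples.

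Library totals ran from 16643961 to 22112326 counts, and levels below are CPM, counts scaled to each library's total and adjusted by the trimmed mean of M-values. All 10 endothelial markers checked averaged at least 1 CPM, with a summed level of 891 to 1383 CPM over the libraries. The mean sum was 1354 CPM in Control, 1288 in TNF, 1015 in IL1b, 1038 in C5a and 1121 in Epinephrine. The vesicle groups were lower than Control, at 913 in EV-Control, 990.4 in EV-TNF, 999 in EV-IL1b, 900.1 in EV-C5a and 1009.5 in EV-Epinephrine. The part of this difference in the results was not tested. Of 5 leukocyte markers only CD14 reached a mean of 1 CPM, and the astrocyte marker AQP4 was at 0 in every library. All 4 pericyte markers were above 1 CPM. Most of their summed level was CSPG4, at a mean of 324 CPM in Control and 429.5 in TNF. PDGFRB went the other way, with 1361, 1247 and 1171 raw counts in Control and 543, 641 and 602 in TNF. RGS5 also fell, from 147, 138 and 150 raw counts to 66, 115 and 96. The summed level moved between groups, with means of 408 CPM in Control, 471 in TNF, 342 in IL1b and in Epinephrine and 362 in C5a. In the vesicle arm the means were 434 in EV-Control, 467 in EV-TNF, 474 in EV-IL1b, 422 in EV-C5a and 525 in EV-Epinephrine. Among these markers NOTCH3 was at 8.69 ± 0.787 CPM (SD, n = 3) in EV-Control, 19.1 ± 1.48 in EV-TNF, 16 ± 2.05 in EV-IL1b, 10.5 ± 1.48 in EV-C5a and 24.3 ± 1.48 in EV-Epinephrine, and at 7.93 ± 2.16 in Control and 1.42 ± 0.318 in TNF. CSPG4 also rose with EV-Epinephrine, from a mean of 331 CPM to 409.9, but PDGFRB and RGS5 did not follow. PDGFRB held 1479, 1520 and 1497 raw counts in EV-Control and 1558, 1442 and 1450 in EV-Epinephrine. RGS5 held 136, 158 and 192 raw counts in EV-Control and 157, 117 and 171 in EV-Epinephrine. The part of these markers in the results was not tested. Fewer cells of a type and less RNA per cell cannot be told apart in bulk RNA.

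Promoter sequences show which of these genes carry the elements just named. RefSeq promoters (GRCh38.p14, from 250 bases before to 50 bases after the start) were at hand for 42 of the 53 genes, and the other 11, which include IFIT2, IRF7, OAS2, MX2 and PML, were not matched. An ISRE, searched as GAAA, any 2 bases and GAAA on both strands, lay in 26 of the 42 promoters (61.9%), against 3.65% of all 27305 promoters. A GAS, searched as TTC, any 3 bases and GAA on both strands, lay in 11 (26.2%, against 7.88%), and the NF-kappaB motif lay in 7 (16.7%, against 5.72%). The stretches below are shown because IFIT1, IFIT3, ISG15 and OAS3 hold an ISRE match and IRF1 holds none in this window. RSAD2 and CMPK2, which rose most with EV-TNF, hold none of the 3 motifs in the window. RIGI and IFIT3, which came next, hold an NF-kappaB and an ISRE match. ISG20, which was lowered by EV-Epinephrine, holds an ISRE match. Bases outside the window were not searched, so a missing match does not show that a gene lacks the element. Each stretch is given 5′ to 3′ on the strand of its gene, with matched motifs in capitals. Neighbouring and overlapping matches run together, and a match is a description of letters only.
IFIT1: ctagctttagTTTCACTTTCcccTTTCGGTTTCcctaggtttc
IFIT3: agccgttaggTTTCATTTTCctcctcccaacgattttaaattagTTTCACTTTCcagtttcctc
ISG15: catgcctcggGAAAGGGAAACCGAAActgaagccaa
OAS3: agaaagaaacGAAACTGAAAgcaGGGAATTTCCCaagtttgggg
IRF1: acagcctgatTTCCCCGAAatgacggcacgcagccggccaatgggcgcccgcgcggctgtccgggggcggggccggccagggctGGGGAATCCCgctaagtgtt

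The IFIT1 stretch, at chr10:89392497-89392539 on the plus strand, holds ISRE matches on the reverse strand side by side. The IFIT3 stretch (chr10:89327831-89327894, plus strand) holds a pair of ISRE matches farther apart. The ISG15 stretch (chr1:1013374-1013409, plus strand) holds overlapping ISRE matches. In OAS3 (chr12:112938321-112938364, plus strand) an ISRE is followed 3 bases later by an NF-kappaB match. In IRF1 (chr5:132490804-132490907, minus strand) the first capitals are a GAS and the last an NF-kappaB match. The 26 genes with an ISRE match had a median log2 fold change of 1.88 with TNF, and the 16 without one had 2.10. Some of the 16, such as IRF1, hold a GAS or NF-kappaB match, and the part of the motifs in the responses was not tested. With EV-TNF the medians were 0.65 and 0.58.

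These genes were active in unstimulated cells. In Control, 20 of the 53 lay in the top 10% of 16089 genes by CPM per kilobase of exon. IFI6, a mitochondrial protein that limits cell death, was first at 1045 ± 7.38 CPM per kilobase (SD, n = 3; rank 16 of all genes). IFITM3, which blocks fusion of viruses in endosomes, followed at 633 ± 8.88, then BST2, also called tetherin, at 369.9 ± 10.9 and ISG15 at 266 ± 8.77. The spreads of these 4 genes did not touch. At the other end stood IRF1 at 5.45 ± 0.526, IRF9 at 2.84 ± 0.325 and the RNA sensor RIGI at 1.16 ± 0.0966 CPM per kilobase. IRF9 shares 48.4% of its exon bases with a same-strand neighbour, and IFITM1 and IFITM2 share 351 exon bases, so the division of reads between those genes is uncertain. Strand use in counting is not given in the sources used here, and XAF1 (38.3%) and IRF1 (22%) overlap genes on the opposite strand over the stated share of their exon bases.

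**Figure D1:**
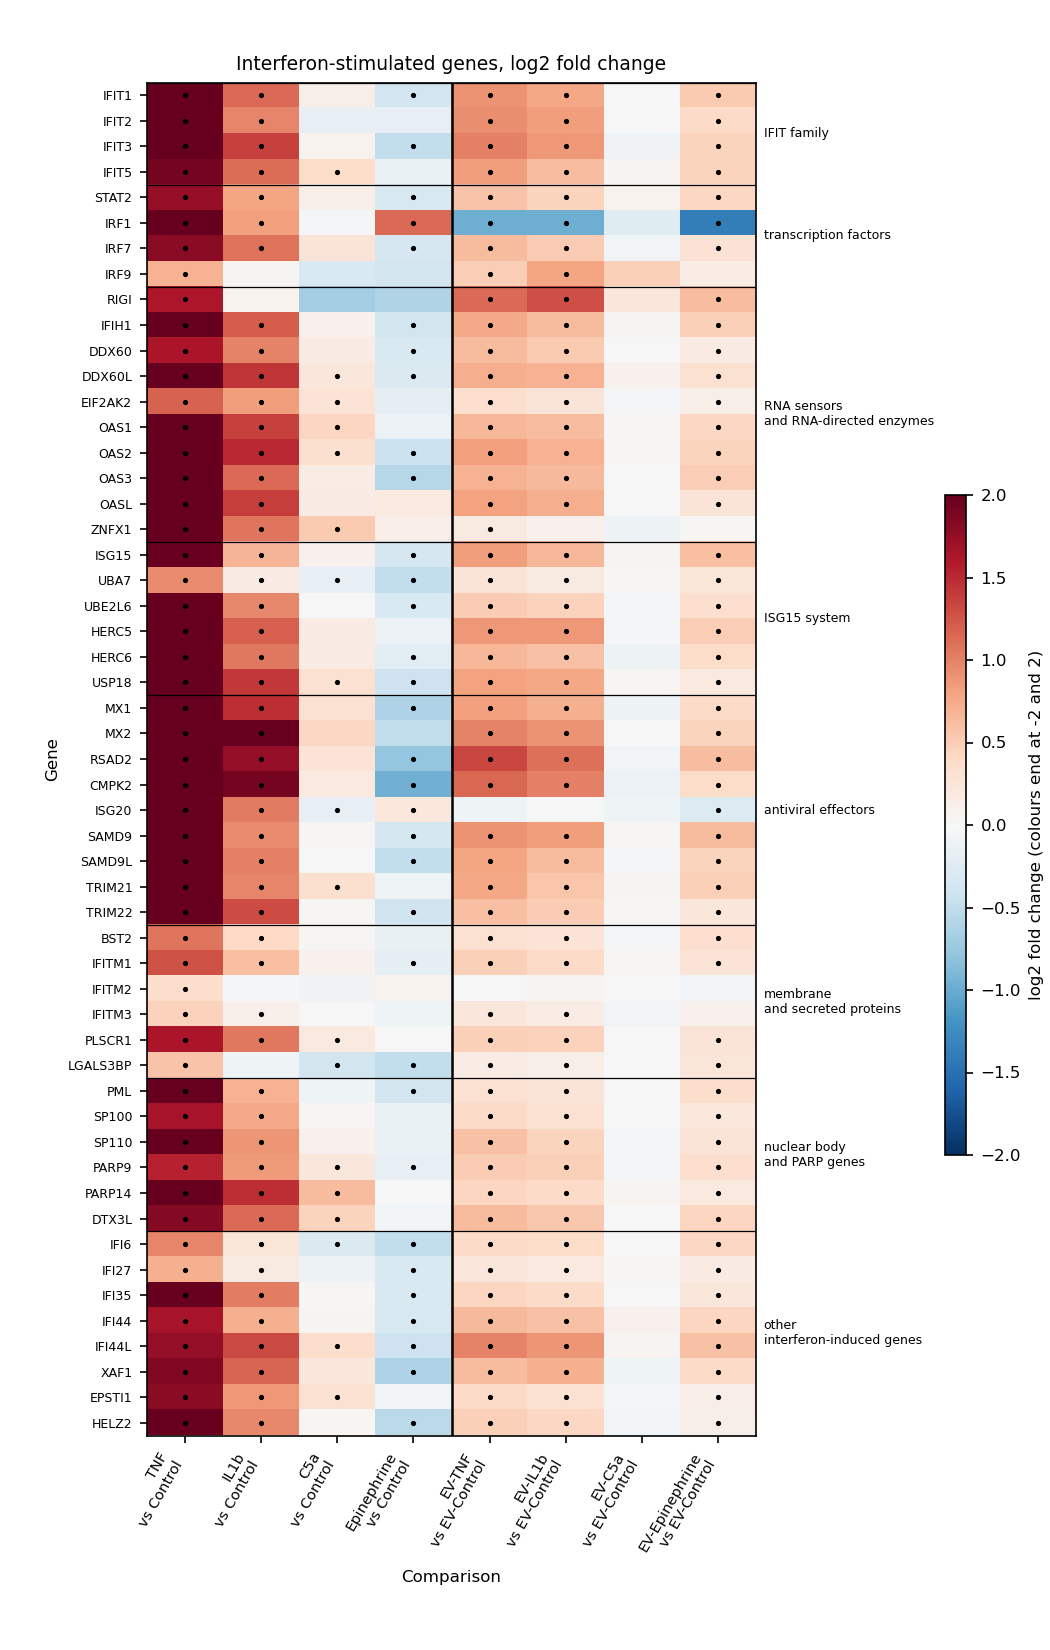
Log2 fold change of each of the 53 genes (rows, grouped by role) in the 4 direct comparisons with Control (left) and the 4 vesicle comparisons with EV-Control (right). Black dots mark edgeR calls at an adjusted p under 0.05 and colours end at -2 and 2. All 53 rows are marked for TNF, none for EV-C5a, and IRF1 is blue in EV-TNF, EV-IL1b and EV-Epinephrine where most rows are red.

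TNF raised every one of the 53 genes. The group means of all 53 were higher with TNF than in any of the other 9 groups, and in all 53 the 3 TNF libraries lay above the 3 Control libraries. Neither count was made over all genes. Genes were called at an adjusted p under 0.05 by the quasi-likelihood F-test of edgeR, after Benjamini-Hochberg adjustment over all genes tested. The test called 53 of 53 higher (100%), against 27.5% of all 15908 genes called higher and 25.3% called lower. The median log2 fold change of the 53 was 2.09, a fold of 4.24, against -0.012 over all genes, and 46 exceeded 1.

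The IFIT genes, whose proteins bind foreign RNA and block its translation, sit together on chromosome 10 and responded most as a family, with log2 fold changes of 1.91 to 4.0. IFIT2 (chr10:89283694-89309276, GENCODE 29 on GRCh38) was at 73, 76.3 and 75.3 CPM in Control and at 1158, 1233 and 1193 CPM with TNF. That is a log2 fold change of 4.0 ± 0.1 (SE; edgeR adjusted p = 9.88e-14), the highest of the 53. IFIT3 rose from 167, 159 and 178 CPM to 1778, 1911 and 1844 CPM (3.46 ± 0.12; edgeR adjusted p = 2.88e-10). IFIT1 went from a mean of 234 ± 13.6 CPM to 1514 CPM, a fold of 6.47.

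Among transcription factors, IRF1 stood at 41.2, 39.3 and 47.1 CPM in Control and at 357, 401 and 391 CPM with TNF, a log2 fold change of 3.17 ± 0.15 (edgeR adjusted p = 4.99e-09). No TNF library came near the Control range. IRF7 rose 3.51-fold and STAT2 3.35-fold. IRF9, the DNA-binding partner of STAT2, rose 1.63-fold (log2 0.70 ± 0.19, edgeR adjusted p = 0.00471), with 11.4, 9.35 and 11.5 CPM against 21.8, 13.5 and 17.6 CPM. The IRF9 call was lost when libraries were scaled by total counts (0.43, edgeR adjusted p = 0.0671).

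All 10 RNA sensors and RNA-directed enzymes rose, by a median log2 fold change of 2.36. OASL, a relative of the 2′-5′ oligoadenylate synthetases, was at 77.9, 74.6 and 75.4 CPM in Control and 643, 680.0 and 664 CPM with TNF, an 8.71-fold rise. OAS1, a synthetase that activates RNase L, rose 5.68-fold, from a mean of 130.4 to 741 CPM. RIGI, a sensor of viral RNA ends, was at 4.92, 4.7 and 5.51 CPM in Control and at 18.9, 10.9 and 16.9 CPM with TNF. Its fold of 3.07 rests on few counts. The 6 genes of the ISG15 system rose by log2 0.94 (UBA7, the activating enzyme) to 2.67 (USP18, which removes ISG15), and ISG15 itself went from 256, 253 and 241 CPM to 965, 1011 and 969 CPM.

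The 9 antiviral effectors had a median log2 fold change of 2.84. RSAD2, also called viperin, converts CTP into a chain terminator of viral RNA synthesis, and CMPK2 is a mitochondrial nucleotide kinase encoded next to it. The genes lie head to head on chromosome 2 and share 14 exon bases on opposite strands. RSAD2 was at 58.5, 55 and 58.3 CPM in Control and 822, 829 and 833 CPM with TNF, a 14.5-fold difference. CMPK2 was at 53.1, 49.1 and 51.3 CPM in Control and 507, 530.0 and 504 CPM with TNF, a 10-fold difference. MX2, a dynamin-like GTPase that acts on viral capsids, rose 11-fold, from 80.2, 70.6 and 75.2 CPM to 814, 835 and 830.4 CPM. SAMD9L, a translation repressor, rose 8.29-fold, from 69.9, 68.9 and 73.2 CPM to 599, 569 and 589.7 CPM.

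The 6 membrane and secreted proteins changed least, with a median log2 fold change of 0.82. IFITM2 (0.35 ± 0.053) and IFITM3 (0.46 ± 0.039) were the lowest of all 53, and BST2 rose 2.1-fold. PML, the scaffold of nuclear bodies, rose 3.96-fold. Under total-count scaling the median over all genes with TNF was -0.29, with 2283 genes called higher and 7783 lower, and the median of the 53 was 1.81, so the rise held relative to that shift. IFITM2 was not called under every setting.

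IL1b raised 49 of the 53 (92.5%) and lowered none, against 24% of all genes called higher and 22.6% called lower. The median log2 fold change was 1.01 (a fold of 2.02), and 27 exceeded 1. The exceptions were IRF9 (0.05 ± 0.2), RIGI (0.07 ± 0.24), IFITM2 (-0.03 ± 0.053) and LGALS3BP (-0.09 ± 0.048), a secreted glycoprotein, which did not pass the test. TNF and IL1b were compared with the same Control libraries.

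The largest IL1b response was that of MX2, with 351, 369.9 and 331 CPM against 80.2, 70.6 and 75.2 CPM in Control, a log2 fold change of 2.23 ± 0.16 (edgeR adjusted p = 5.9e-07). CMPK2 rose 3.75-fold to 205, 192 and 175 CPM, and RSAD2 rose 3.36-fold to 196, 198 and 179 CPM. For these 3 genes no IL1b library overlapped Control. OAS2 rose 2.85-fold, from 375, 355 and 373 CPM to 1072, 1076 and 974 CPM. MX1, which traps incoming ribonucleoproteins of influenza and other viruses, rose 2.79-fold, from 593, 568 and 608 CPM to 1676, 1667 and 1563 CPM.
PARP14, a mono-ADP-ribosyltransferase, rose 2.77-fold to 624, 662 and 619 CPM from 225, 225 and 242 CPM. DDX60L, a helicase-like protein, rose 2.7-fold, and USP18 rose 2.67-fold. IRF1 was at 77.2, 71.9 and 75.2 CPM with IL1b (log2 0.82 ± 0.15, edgeR adjusted p = 0.000911), well under its TNF level of 383 ± 23 CPM. IFITM3 rose by 0.10 ± 0.039 (edgeR adjusted p = 0.0253), a call lost without Control library 3 (edgeR adjusted p = 0.0788) or without IL1b library 1 (edgeR adjusted p = 0.109).

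Set directly against TNF, IL1b gave lower levels of all 53 (100%), where 19.9% of all genes were called higher and 21.4% lower. The median of that difference was -1.02. IFIT2 differed most: its 3 IL1b libraries held 159, 144 and 139 CPM, an 8.06-fold gap to TNF (log2 -3.01 ± 0.094, edgeR adjusted p = 2.81e-12). Next came IRF1 (-2.35 ± 0.14), RSAD2 (-2.11 ± 0.16) and IFIT3 (-2.10 ± 0.12). EIF2AK2, the kinase PKR that stops translation on double-stranded RNA, differed least (-0.33), and its call and that of IRF9 were not kept under every setting. Under total-count scaling the median over all genes of this comparison was 0.21 and that of the 53 was -0.83, with 6504 genes called higher and 2041 lower.

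With C5a 18 of these genes were called, and the changes were small. It raised 14 (26.4%, against 11.8% of all genes called higher) and lowered 4 (7.55%, against 10.8% called lower), with a median log2 fold change of 0.11 and none past 1. PARP14 had the largest rise, at 363, 333 and 366 CPM against 225, 225 and 242 CPM in Control (0.63 ± 0.058, edgeR adjusted p = 3.13e-09). ZNFX1, a mitochondrial sensor of RNA, was at 196, 183 and 199 CPM against 135, 142 and 130.2 CPM (0.52 ± 0.053, edgeR adjusted p = 2.66e-09). For PARP14 and ZNFX1 every C5a library lay above every Control library. DTX3L, a ubiquitin ligase that pairs with PARP9, rose by 0.45 ± 0.061, and OAS1 rose by 0.43 ± 0.11 (edgeR adjusted p = 0.0111).
LGALS3BP fell by 0.36 on the log2 scale, from 449.7, 435 and 402 CPM to 336, 319.8 and 342 CPM (edgeR adjusted p = 5.66e-07). IFI6 (-0.29), ISG20 (-0.17), an exonuclease, and UBA7 (-0.17) also fell, with edgeR adjusted p = 0.0256, 0.041 and 0.0196. RIGI had the lowest value, -0.69 ± 0.26, with 4.19, 2.75 and 2.36 CPM against 4.92, 4.7 and 5.51 CPM, and did not pass the test (edgeR adjusted p = 0.0643), although DESeq2 called it (DESeq2 adjusted p = 0.0215). Leaving out single libraries gave 8 to 17 higher calls, with 8 without Control library 2, 9 without Control library 3, C5a library 1 or C5a library 3, and 17 without C5a library 2. Lower calls came to 2 without Control library 1 or 2, and to 1 without Control library 3, C5a library 2 or C5a library 3. C5a library 2 was the lowest of its group for 47 of the 53.

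Epinephrine lowered most of the 53 while raising IRF1. It lowered 31 (58.5%, against 11.8% of all genes called lower) and raised 2 (3.77%, against 13.5% called higher), and the median log2 fold change was -0.31 against 0.009 over all genes. In 45 of the 53 the lowest group mean among the 10 groups was that of Epinephrine, a count not made over all genes. In 34 of the 53, called or not, all 3 Epinephrine libraries lay below all 3 Control libraries, and in 1 all lay above. Neither share was counted over all genes. Among the 31 called lower the count was 30, but the call was made on those same libraries, so it adds no support. None of the 31 passed a log2 fold change of -1.

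CMPK2 fell most, with 17.1, 23.9 and 36.5 CPM against 53.1, 49.1 and 51.3 CPM in Control (-0.96 ± 0.25, edgeR adjusted p = 0.0172). Its neighbour RSAD2 held 25.3, 28.6 and 44.7 CPM against 58.5, 55 and 58.3 CPM (-0.78 ± 0.18, edgeR adjusted p = 0.00902). In both genes the groups did not overlap, and Epinephrine library 3 stood nearest to Control. XAF1, an antagonist of apoptosis inhibitors, held 27.7, 21.9 and 34.8 CPM against 42.8, 47.4 and 41.3 CPM (-0.62 ± 0.12, edgeR adjusted p = 0.0015). MX1 held 316, 359 and 477 CPM against 593, 568 and 608 CPM (-0.61 ± 0.13, edgeR adjusted p = 0.0053).
STAT2 fell by 0.32 and PML by 0.37 on the log2 scale. ISG15 fell by 0.33, IFIT1 by 0.38 and IRF7 by 0.34, and these 3 calls, like that of CMPK2, were lost when 1 library was left out. For CMPK2 those libraries were Control 1 (-0.93, edgeR adjusted p = 0.0549) and Epinephrine 1 (-0.73, edgeR adjusted p = 0.0519). IRF1 went the other way, with 77.5, 81.1 and 119 CPM against 41.2, 39.3 and 47.1 CPM (1.14 ± 0.15, edgeR adjusted p = 0.000198). ISG20 rose by 0.21 ± 0.059 (edgeR adjusted p = 0.00657), with 56.6, 69.2 and 64.1 CPM against 52.2, 56 and 56.6 CPM, and its groups touched at 56.6 CPM.
The Epinephrine libraries differed among themselves. Library 3 was the highest of the group for 44 of the 53 and library 1 the lowest for 37, and the median coefficient of variation was 13.3%, against 3.48% in Control. Without Epinephrine library 3 there were 37 lower calls and a median of -0.39, and without library 1 there were 25 and -0.22. Without Control library 1 there were 23.

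**Figure D2:**
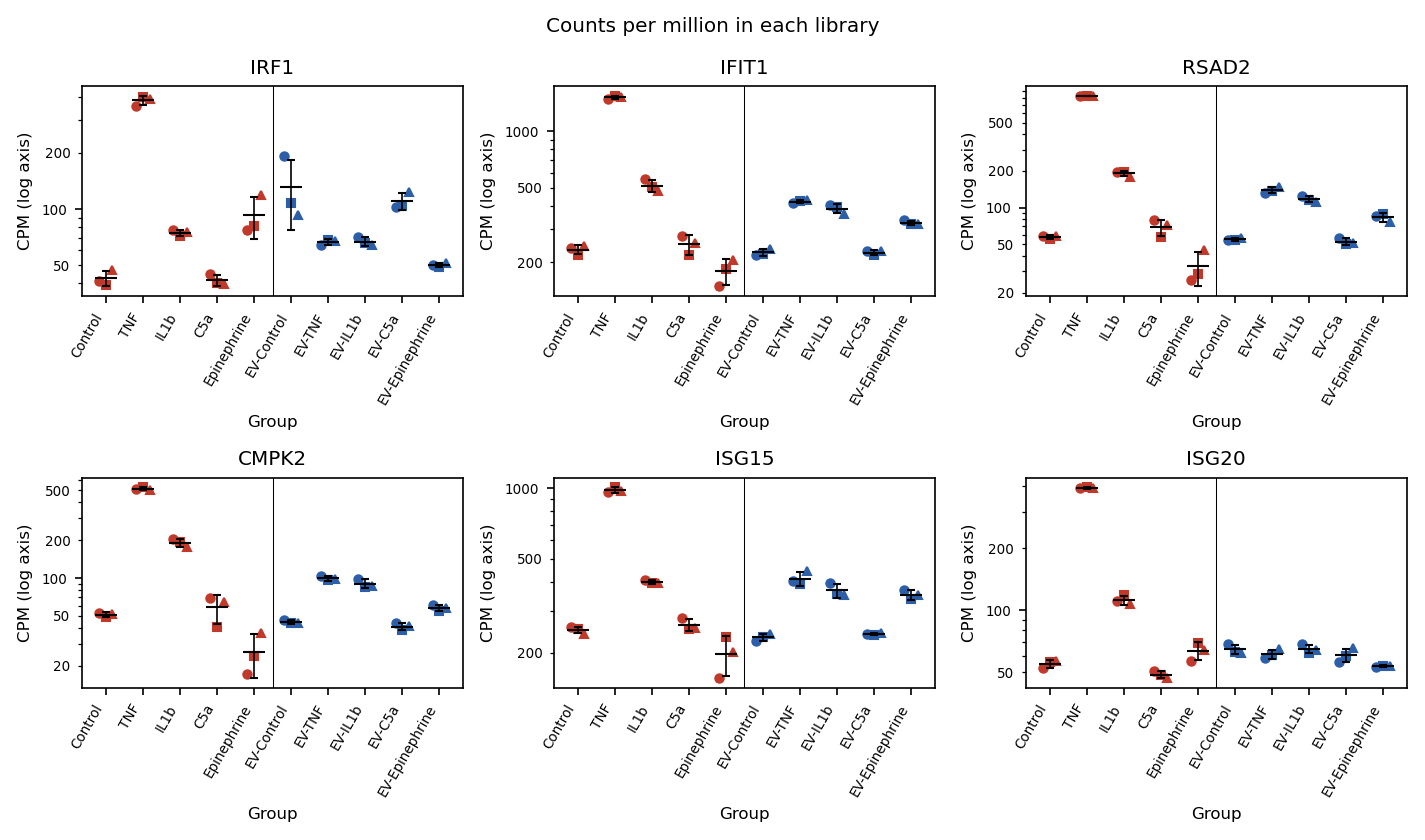
CPM on a log axis in each of the 30 libraries for IRF1, IFIT1, RSAD2, CMPK2, ISG15 and ISG20, direct groups in red and vesicle groups in blue, with circles, squares and triangles for libraries 1, 2 and 3 and bars for mean ± SD. TNF is the highest group in each panel, and IRF1 in EV-Control spans 92.9 to 192 CPM while the other vesicle groups of IRF1, except EV-C5a, lie below it.

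Vesicles from TNF-treated cells raised nearly all of these genes, at a smaller size than TNF itself. The vesicle dose is not known here, so these sizes are not at matched doses. Vesicle content and any stimulus carried over from the medium cannot be told apart. EV-TNF raised 50 of the 53 (94.3%, against 5.9% of all 15918 genes called higher) and lowered 1 (1.89%, against 7.42% called lower) relative to EV-Control. The median log2 fold change was 0.63, a fold of 1.55, and 3 exceeded 1. In all, 50 genes had every EV-TNF library above every EV-Control library, a count not made over all genes.

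RSAD2 led, with 132, 138 and 147 CPM against 54.3, 54 and 56.1 CPM in EV-Control (1.34 ± 0.055, edgeR adjusted p = 4.71e-24). CMPK2 held 104, 96.2 and 97.9 CPM against 46.3, 44.1 and 43.5 CPM (1.15 ± 0.058, edgeR adjusted p = 6.93e-23). Both genes were separated from EV-Control by far more than the spread of either group. RIGI held 7.07, 6.7 and 6.3 CPM against 1.86, 3.14 and 4.11 CPM (1.13 ± 0.19, edgeR adjusted p = 1.75e-05). IFIT3 rose to 346, 336 and 372 CPM from 180.2, 171 and 176 CPM (1.00 ± 0.045).
IFIT1 rose 1.86-fold, ISG15 1.77-fold, MX1 1.77-fold, OAS1 1.58-fold, IRF7 1.55-fold, STAT2 1.48-fold and BST2 1.23-fold. The smallest rises among roles were again those of membrane and secreted proteins (median log2 0.26) and the largest those of the IFIT family (median 0.92). ISG20 (-0.08 ± 0.057) and IFITM2 (0.01 ± 0.041) did not pass the test.

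EV-IL1b, which shares the EV-Control libraries with EV-TNF, also raised most of the list. It raised 49 of the 53 (92.5%, against 6.49% of all genes called higher) and lowered 1 (1.89%, against 8.14% called lower), with a median log2 fold change of 0.54. RIGI was first, at 6.29, 8.97 and 7.13 CPM (1.29 ± 0.19, edgeR adjusted p = 1.09e-06). It was followed by RSAD2 at 125, 116 and 111 CPM (1.10 ± 0.056) and CMPK2 at 98.4, 85 and 87 CPM (1.01 ± 0.058). MX2 held 163, 153 and 139 CPM against 89.4, 80.9 and 74.4 CPM (0.90 ± 0.069). In these 4 genes no library overlapped EV-Control. IRF9 and RIGI, which did not pass the test with IL1b itself, were raised by EV-IL1b, IRF9 by 0.79 ± 0.12 (17.7, 16.9 and 12.5 CPM against 8.88, 8.88 and 9.42 CPM, edgeR adjusted p = 1.48e-06). ISG20 (0.01 ± 0.057), ZNFX1 (0.08 ± 0.042) and IFITM2 (0.06 ± 0.041) did not pass.

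EV-C5a changed none of the 53 by edgeR, where 0.0126% of all genes were called higher and 0.0377% lower. The median log2 fold change was 0.00, 2 of the 53 had an unadjusted p under 0.05, and DESeq2 also called 0. IRF9 was the highest, at 13.6, 11.5 and 13 CPM against 8.88, 8.88 and 9.42 CPM (0.48 ± 0.12, edgeR adjusted p = 0.126). It was called with no low-count filter and without EV-Control library 3.

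EV-Epinephrine raised 47 of the 53 (88.7%, against 9.12% of all genes called higher), the opposite direction to Epinephrine itself, and lowered IRF1 and ISG20 (3.77%, against 10.5% called lower). The median log2 fold change was 0.34, a fold of 1.26, and 46 genes had every EV-Epinephrine library above every EV-Control library. That separation was not counted over all genes. SAMD9, a paralogue of SAMD9L, held 69.9, 68 and 68.5 CPM against 44.8, 38.7 and 50.2 CPM (0.63 ± 0.071, edgeR adjusted p = 5.77e-08). RSAD2 held 85.8, 88.8 and 75.6 CPM against 54.3, 54 and 56.1 CPM (0.61 ± 0.057, edgeR adjusted p = 9.12e-12). ISG15 held 370.4, 337 and 350.5 CPM against 223, 234 and 239 CPM (0.60 ± 0.049, edgeR adjusted p = 9.68e-09).
None of these 3 genes overlapped EV-Control. RIGI rose by 0.61 ± 0.2 (edgeR adjusted p = 0.0254) from groups that overlapped, and its call was lost without EV-Control library 1 (0.36, edgeR adjusted p = 0.26) or 2 (0.63, edgeR adjusted p = 0.0551), or without EV-Epinephrine library 2 (0.62, edgeR adjusted p = 0.0597) or 3 (0.47, edgeR adjusted p = 0.178). ISG20 fell by 0.27, to 52.9, 53.7 and 53.8 CPM from 68.4, 62.9 and 62.2 CPM (edgeR adjusted p = 0.000432). IFITM2, IFITM3, IRF9 and ZNFX1 did not pass the test in either Epinephrine comparison.

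IRF1 was the one gene of the 53 called lower with EV-TNF and with EV-IL1b, and with EV-Epinephrine it was called lower together with ISG20. IRF1 held 192, 108 and 92.9 CPM in EV-Control, against 64, 68.6 and 67.8 in EV-TNF, 71.1, 65.5 and 64.4 in EV-IL1b, 103, 104 and 124 in EV-C5a and 50.2, 48.8 and 51.4 in EV-Epinephrine. All libraries of EV-TNF, EV-IL1b and EV-Epinephrine lay below all EV-Control libraries, and those of EV-C5a overlapped them. The log2 fold changes against EV-Control were -0.97 ± 0.22 in EV-TNF (edgeR adjusted p = 0.0159), -0.97 ± 0.22 in EV-IL1b (edgeR adjusted p = 0.0155) and -1.38 ± 0.23 in EV-Epinephrine (edgeR adjusted p = 0.00152). These 3 comparisons share the EV-Control libraries, among which library 1 stood apart, and the coefficient of variation of IRF1 there was 40.9%.
Without EV-Control library 1 the changes of IRF1 were -0.59, -0.58 and -1.0, with edgeR adjusted p = 1.14e-07, 1.58e-07 and 1.61e-12. The calls of IRF1 were lost in fits of only the groups compared, with edgeR adjusted p = 0.194, 0.188 and 0.0673. They were also lost without EV-TNF library 1 (edgeR adjusted p = 0.0599 for EV-TNF) and without EV-IL1b library 2 or 3 (edgeR adjusted p = 0.0558 and 0.0555 for EV-IL1b).

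The controls of the arms differed in IRF1 more than in any other of the 53. Mean IRF1 was 42.5 CPM in Control and 131 in EV-Control. It was 66.8 CPM in EV-TNF, 67 in EV-IL1b, 110.4 in EV-C5a and 50.1 in EV-Epinephrine. The falls of IRF1 against EV-Control thus did not go below the Control level. EV-Control cells were given vesicles of unstimulated cells, and Control cells were given serum-free medium, so vesicles and any other handling of the vesicle arm cannot be told apart. EV-Control was 3.07-fold higher in IRF1 (1.62 ± 0.2, edgeR adjusted p = 2.34e-06; 1.25 without EV-Control library 1). Of the 53, 8 were higher (15.1%, against 12.1% of all genes called higher) and 9 lower (17%, against 9.8% called lower), shares not far from those of all genes. OASL (0.61 ± 0.078), PARP14 (0.35 ± 0.054) and ZNFX1 (0.32 ± 0.05) followed IRF1 among those higher. RIGI (-0.72 ± 0.26), IFI6 (-0.43 ± 0.08), LGALS3BP (-0.36 ± 0.043) and SAMD9L (-0.34 ± 0.075) led those lower. The RIGI call (edgeR adjusted p = 0.0443) was lost without any 1 of the Control libraries or without EV-Control library 1 or 2, and its value without EV-Control library 1 was -0.47. Without Control library 2 there were 5 higher calls.

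**Figure D3:**
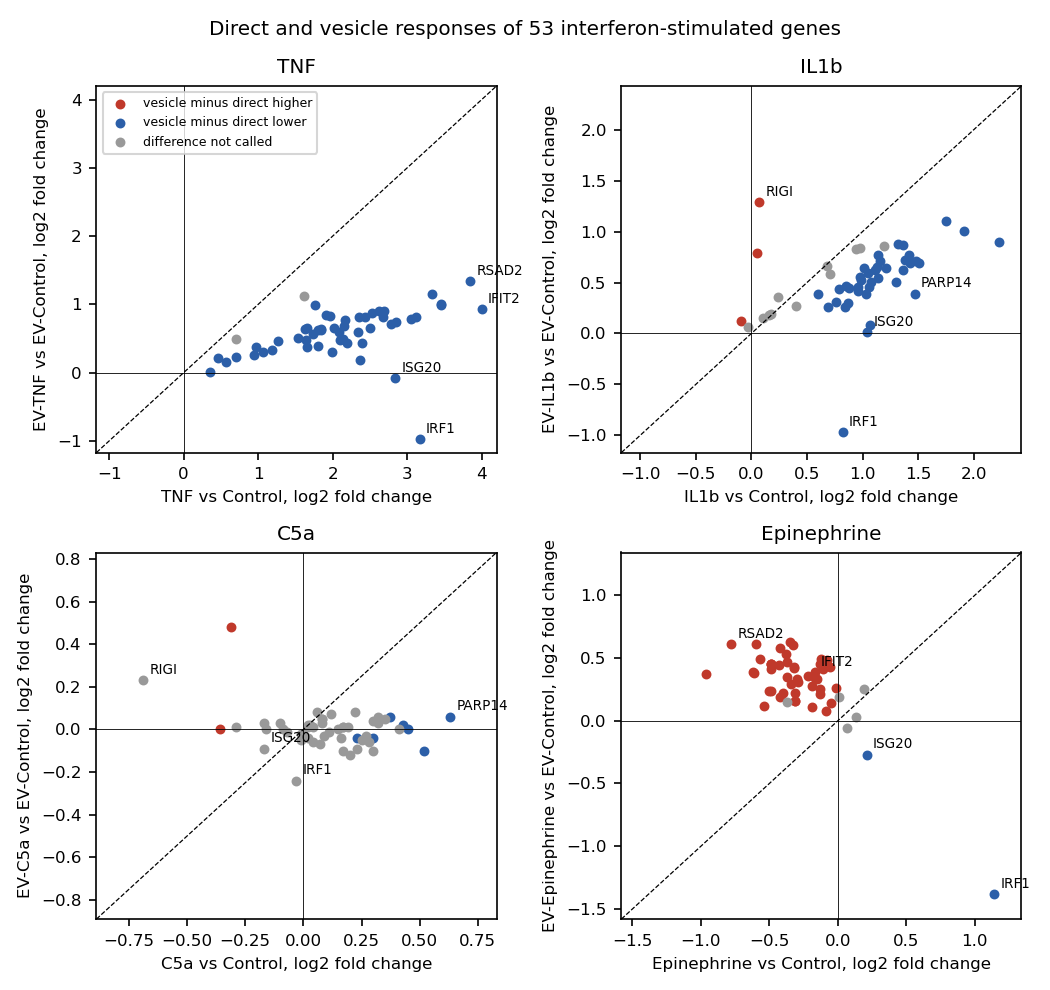
Direct response (x axis, log2 fold change against Control) and vesicle response (y axis, log2 fold change against EV-Control) of the 53 genes for each stimulus, coloured by the edgeR test of the difference. The dashed line marks equal responses: 51 genes lie below it for TNF with a called difference, and 46 lie above it with a called difference for Epinephrine.

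The direct and vesicle responses were compared gene by gene as an interaction, the vesicle response minus the direct response, in 1 fit of all 30 libraries. The vesicle dose is not known here, so the arms are not compared at matched doses. Counts below that combine the calls of both arms were made for the 53 genes and not over all genes. For TNF, 50 genes were raised in both arms, and ISG20 and IFITM2 were raised directly only. IRF1 was raised directly and was lower with EV-TNF than in EV-Control, whose IRF1 level was itself above Control. The vesicle response was smaller in 51 genes (96.2%, against 23.4% of all 16691 genes called lower and 21.3% called higher) and larger in 0, with a median difference of -1.46. IRF1 had the largest difference (-4.14 ± 0.27, edgeR adjusted p = 2.27e-11), followed by IFIT2 (-3.06 ± 0.11), ISG20 (-2.92 ± 0.081) and RSAD2 (-2.51 ± 0.18). ISG20 was called in the direct arm only and held 391, 397 and 391 CPM with TNF against 52.2, 56 and 56.6 in Control, and 58.7, 60.2 and 64.6 with EV-TNF against 68.4, 62.9 and 62.2 in EV-Control.
For IRF9 (-0.21 ± 0.24) and RIGI (-0.49 ± 0.34) the difference between the arms did not pass the test. Under total-count scaling the median over all genes of this interaction was 0.31 (6891 higher, 2093 lower) and that of the 53 was -1.17, and IFITM3 went from -0.24 to 0.05 (edgeR adjusted p = 0.426).

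For IL1b, 46 genes were raised in both arms, and the vesicle response was smaller in 39 (73.6%, against 18.3% of all genes called lower) and larger in 3 (5.66%, against 16.9% called higher), with a median difference of -0.47. Larger were RIGI (1.23 ± 0.35, edgeR adjusted p = 0.00523), IRF9 (0.75 ± 0.24, edgeR adjusted p = 0.015) and LGALS3BP (0.23 ± 0.06). The IRF9 call was lost without IL1b library 1 (edgeR adjusted p = 0.0504) or 2 (edgeR adjusted p = 0.0519), or without EV-IL1b library 1 (edgeR adjusted p = 0.0506). Smaller were, first, IRF1 (-1.78 ± 0.28), MX2 (-1.32 ± 0.18), PARP14 (-1.07 ± 0.076) and ISG20 (-1.02 ± 0.081). For ISG15 the difference of -0.01 ± 0.12 did not pass the test. Under total-count scaling the median over all genes was 0.11, with 3770 called higher and 2273 lower, and that of the 53 was -0.38.

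For C5a, 18 genes were called in the direct arm only and 35 in neither. The difference itself passed the test in 9: 2 larger in the vesicle arm (3.77%, against 5.87% of all genes called higher) and 7 smaller (13.2%, against 6.05% called lower). ZNFX1 (-0.61 ± 0.07), PARP14 (-0.56 ± 0.076), DTX3L (-0.44 ± 0.076) and OAS1 (-0.41 ± 0.12) led the smaller ones. LGALS3BP (0.36 ± 0.06) and IRF9 (0.80 ± 0.25, edgeR adjusted p = 0.0288) were the larger ones. The IRF9 call was lost without any 1 of Control libraries 1 and 3, C5a libraries 1 and 3, EV-Control libraries 1, 2 and 3, and EV-C5a libraries 1 and 3 (edgeR adjusted p = 0.0523 to 0.0875). The OAS1 call was lost without Control library 2, C5a library 1 or 3, EV-Control library 2 or EV-C5a library 2 (edgeR adjusted p = 0.0532 to 0.0791). The count of smaller responses was 14 without C5a library 2.

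For Epinephrine the arms moved in opposite directions. In 31 genes a direct fall met a vesicle rise. In IRF1 and ISG20 a direct rise met a fall against EV-Control. Another 16 genes were called in the vesicle arm only and 4 in neither. As above, these combined counts have no share over all genes beside them. The vesicle response was higher than the direct response in 46 (86.8%, against 11.7% of all genes called higher) and lower in 2 (3.77%, against 12.5% called lower), with a median difference of 0.62. RSAD2 (1.40 ± 0.19, edgeR adjusted p = 9.35e-06), CMPK2 (1.34 ± 0.26, edgeR adjusted p = 0.000446), RIGI (1.21 ± 0.36, edgeR adjusted p = 0.0128) and OAS3 (1.06 ± 0.1, edgeR adjusted p = 7.39e-08) had the largest differences. OAS3 held 335, 312 and 412 CPM with Epinephrine against 543, 537 and 500.4 in Control, and 746, 723 and 718 with EV-Epinephrine against 522, 515 and 522 in EV-Control. IRF1 (-2.51 ± 0.28, edgeR adjusted p = 4.75e-07) and ISG20 (-0.47 ± 0.083, edgeR adjusted p = 8.66e-06) were the 2 that went the other way, and IRF1 was at -2.14 without EV-Control library 1. Leaving out any 1 library gave 44 to 47 higher differences, with 47 without Epinephrine library 3 or without EV-Control library 1.

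**Figure D4:**
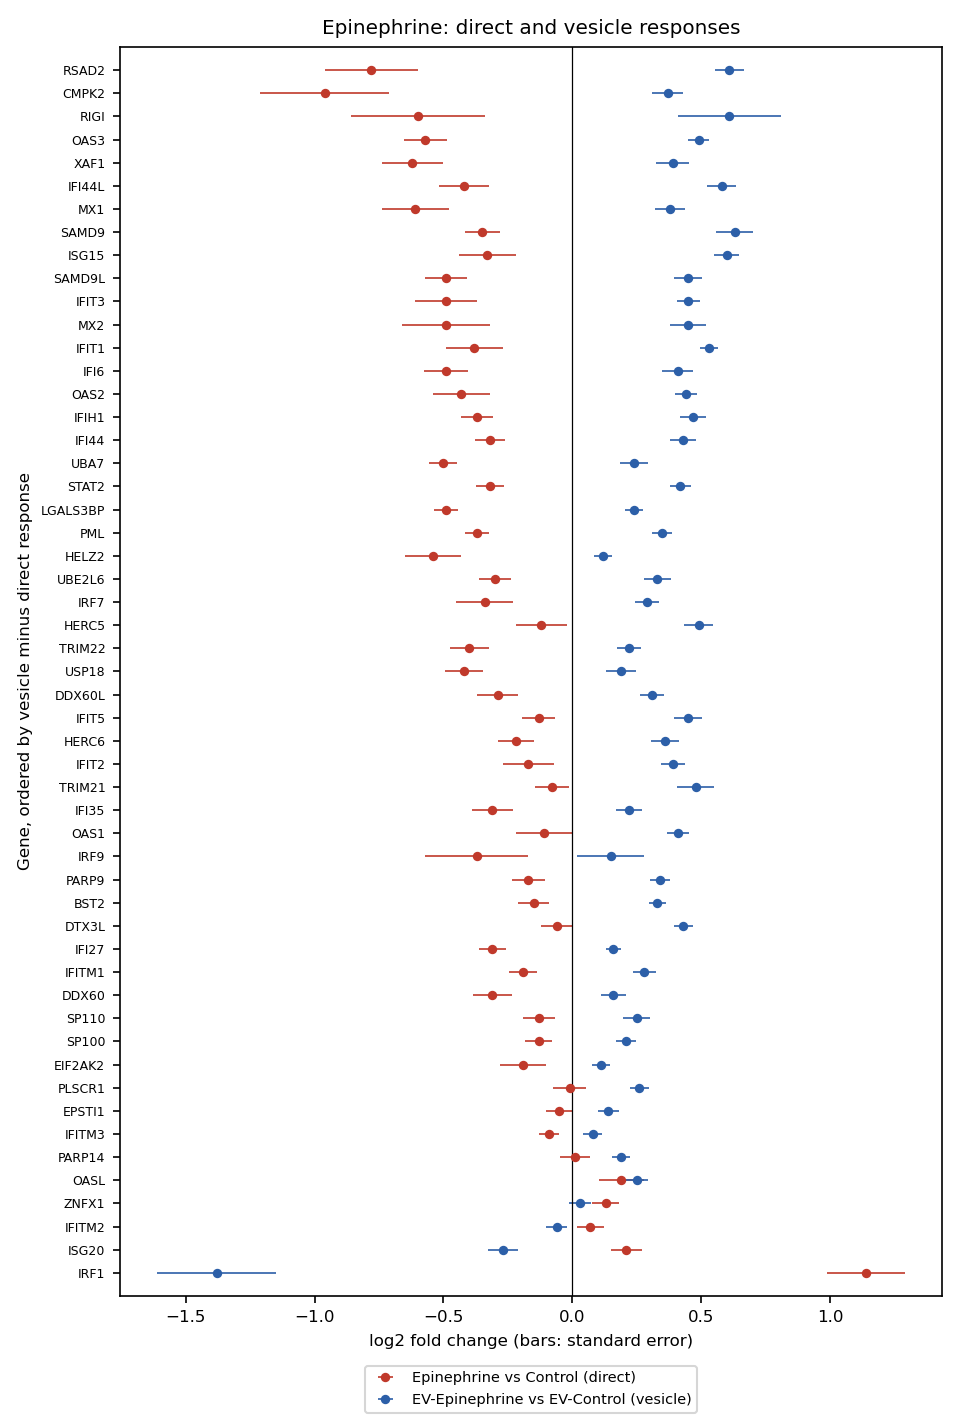
Log2 fold change ± SE of each gene with Epinephrine against Control (red) and with EV-Epinephrine against EV-Control (blue), ordered by the difference between the arms. From RSAD2 at the top down to the genes near the bottom the blue points lie right of the red ones, and for ZNFX1, IFITM2, ISG20 and IRF1 they lie left.

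Genes that share a chromosome neighbourhood could be set side by side. CMPK2 and RSAD2 had log2 fold changes of 3.33 and 3.85 with TNF, 1.91 and 1.75 with IL1b, -0.96 and -0.78 with Epinephrine, and 1.15 and 1.34 with EV-TNF. PARP9 and DTX3L, partners in 1 complex whose genes share 217 exon bases on opposite strands of chromosome 3, had 1.54 and 1.84 with TNF and 0.51 and 0.64 with EV-TNF. Within the IFIT cluster the members were less alike: IFIT2 went from 4.0 with TNF to 0.98 with IL1b, IFIT5 from 1.91 to 1.11. The other genes of a role also spread, as the 10 RNA sensors and enzymes ranged from 1.18 (EIF2AK2) to 3.12 (OASL) with TNF.

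The remaining pathway was read from 35 further genes (interferons, receptors and kinases, sensors and adaptors, restraints), of which 29 passed the count limit and 27 were tested within each arm. TNF raised 22 of the 27 (81.5%, against 27.5% of all genes) and lowered 1 (3.7%, against 25.3%). The 27 of the direct arm include IFNB1, which counts as raised by TNF but was tested only because of its TNF libraries. Apart from the interferons, TNF raised 7 of 9 receptors and kinases, 9 of 11 sensors and adaptors and 5 of 6 restraints. IL1b raised 17 (63%, against 24%) and lowered 2 (7.41%, against 22.6%). C5a raised 1 (3.7%, against 11.8%) and lowered 3 (11.1%, against 10.8%), and Epinephrine raised 4 (14.8%, against 13.5%) and lowered 3 (11.1%, against 11.8%), shares near or under those of all genes. In the vesicle arm EV-TNF raised 4 (14.8%, against 5.9%) and lowered 4 (14.8%, against 7.42%), and EV-IL1b raised 3 (11.1%, against 6.49%) and lowered 3 (11.1%, against 8.14%). EV-Epinephrine raised 4 (14.8%, against 9.12%) and lowered 6 (22.2%, against 10.5%), and EV-C5a changed 0 (edgeR). With so few genes called, nothing is read from the vesicle shares. Those raised by EV-TNF were IRF2, TLR3, STING1 and DHX58, and those lowered were JAK1, IFNGR1, TBK1 and SOCS1. TNF itself raised all 8 of these genes.

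Of the interferons, the direct fit tested only IFNB1, which encodes interferon beta, and the vesicle fit only IFNE, which was not called. IFNB1 held 1.74, 1.67 and 0.809 CPM with TNF against 0.159, 0 and 0.225 CPM in Control (3.40 ± 0.68, edgeR adjusted p = 5.89e-05). IFNB1 reached 10 counts in 3 libraries, those of TNF (26, 31 and 14 counts). It was thus tested only because of the group where it was high, and its p-value is not read as support. Its highest count in any library was 31, and in EV-TNF it held 0.203, 0.102 and 0.227 CPM against 0.06, 0.221 and 0.0548 CPM in EV-Control. IFNL1, a lambda interferon, had 86 counts over all 30 libraries, and its highest mean was 0.59 ± 0.263 CPM with TNF. IFNA1, IFNG and IFNK had 0 counts in every library, where a count of 0 allows up to 3 counts. DHX58, a relative of RIGI, was called in the same direction as most of the 53 in each arm: 2.34 ± 0.085 with TNF, -0.53 ± 0.096 with Epinephrine, 0.65 ± 0.073 with EV-TNF and 0.45 ± 0.074 with EV-Epinephrine.

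The inhibitors SOCS1 and SOCS3, which bind and block JAK kinases, were lower in some of the vesicle groups in which IRF1 was lower. SOCS1 held 4.86, 4.36 and 1.7 CPM in EV-Control, against 1.63, 1.18 and 0.795 in EV-TNF (-1.58 ± 0.33, edgeR adjusted p = 0.000701). With EV-IL1b SOCS1 held 1.62, 1.34 and 2 CPM (-1.13 ± 0.32, edgeR adjusted p = 0.012), and with EV-Epinephrine it held 1.87, 1.77 and 0.992 CPM (-1.22 ± 0.32, edgeR adjusted p = 0.00504). EV-TNF did not overlap EV-Control, whereas EV-IL1b and EV-Epinephrine overlapped EV-Control library 3. SOCS3 held 129, 61.1 and 96.8 CPM in EV-Control and 40.7, 41 and 47.4 in EV-Epinephrine (-1.15 ± 0.27, edgeR adjusted p = 0.0113), and was not called with EV-TNF (-0.53 ± 0.26) or EV-IL1b (-0.44 ± 0.26). In EV-Control, library 1 was the highest for IRF1, SOCS1 and SOCS3. EV-Control was above Control for SOCS1 (1.64 ± 0.34) and SOCS3 (1.12 ± 0.23), as it was for IRF1.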

How the data were processed

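RNA-seq was read for 30 libraries of hCMEC/D3 cells as the raw count table the authors deposited, with 1 whole-number count per gene and library. FastQC, STAR, R 4.4.1, DESeq2 and the build hg38 are named in the submitters' processing notes. The counting program, annotation release and strand setting are not given in the sources used here. Lines without a gene ID (0.00079% to 0.0016% of counts) and the broken records of TTN and ANK2 were left out. For 3 repeated IDs, whose copies held identical counts, 1 copy was kept.

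Genes were tested with edgeR 4.0.16 (filterByExpr, trimmed mean of M-values, robust quasi-likelihood fit) in R 4.3.3, with Benjamini-Hochberg adjustment over all genes of a fit. One fit held the 15 direct libraries, another the 15 vesicle libraries, and a fit of all 30 gave the interactions and EV-Control against Control. The control libraries are shared by the comparisons of an arm. On simulated counts for TNF against Control (15505 genes), 78.8% of genes changed by a log2 of 1 and 97% of those changed by 2 were found. No pair of libraries of a group agreed within sampling noise, with a chi-square per gene of 2.042 or more. The labels do not tell batches apart.

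The 53 genes, the pathway and marker lists and the tests were chosen with earlier results of these data known. Values of single libraries are given for up to 8 called genes with the largest rise and 4 with the largest fall for TNF and IL1b, up to 4 in each direction elsewhere, and 12 genes named whatever their call. Alternatives were other scaling (DESeq2 size factors, total counts), other count filters, a replicate block, other sets of libraries, DESeq2 1.42.0, a fold limit, and leaving out each library. Epithelial markers, the one list not described above, summed to 2.06 to 6.62 CPM, with 1 of 3 at 1 CPM or more. One astrocyte marker of 3, GFAP, reached 1 CPM. Positions and overlaps are from GENCODE 29, and promoters from RefSeq GRCh38.p14. Counts limit the precision of RIGI and IRF9 most, with as few as 31 and 103 counts in a library.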

Additional observations from a re-analysis of the deposited data

Results flagged for a closer look

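The direct and vesicle responses to the same stimulus differed by the interaction test of edgeR. For TNF, 51 of the 53 genes had a lower vesicle than direct response and 0 a higher one. For IL1b, 39 were lower and 3 higher, and for C5a 7 were lower and 2 higher. For Epinephrine, 46 were higher and 2 lower. IRF1 differed by -4.14 for TNF, -1.78 for IL1b and -2.51 for Epinephrine on the log2 scale. The level of EV-Control, which was above Control and spread from 92.9 to 192 CPM, enters all 3 values. Without EV-Control library 1 the differences of IRF1 were -3.76, -1.41 and -2.14.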

How the results depend on the processing

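Counts below are of the 53 genes called by edgeR unless another tool is named. With an absolute log2 fold change over 1 also required, higher calls were 27 for IL1b, 0 for C5a, 1 for Epinephrine, 3 for EV-TNF, 3 for EV-IL1b, 0 for EV-Epinephrine and 1 for EV-Control against Control. Lower calls were then 27 for IL1b against TNF, 0 for C5a, Epinephrine, EV-TNF, EV-IL1b and EV-Control against Control, and 1 for EV-Epinephrine. Interactions then gave 1 higher and 4 lower for IL1b, 0 and 0 for C5a, and 6 and 1 for Epinephrine. Under total-count scaling there was 1 lower call for IL1b, 5 higher and 14 lower for EV-Control against Control and 5 higher for the IL1b interaction, and the IFITM3 TNF interaction reversed to 0.05, where the cause was not tested. With all 30 libraries in the fit IL1b had 1 lower call. Fits of only the groups compared gave 1 lower call for IL1b, 8 lower for C5a, 1 higher for Epinephrine, 0 lower for EV-TNF and for EV-IL1b, 1 lower for EV-Epinephrine, and 5 higher and 15 lower for the C5a interaction. With no low-count filter EV-C5a had 1 higher call and the C5a interaction 12 lower, and DESeq2 gave 4 higher for that interaction. Leaving out 1 library at a time gave 0 to 1 lower calls for IL1b, EV-TNF and EV-IL1b, 8 to 17 higher and 1 to 5 lower for C5a, 0 to 1 higher for EV-C5a, 5 to 8 higher for EV-Control against Control, and 1 to 3 higher and 5 to 14 lower for the C5a interaction. The causes were not tested. The replicate number as a block gave 53 higher for TNF, 48 for IL1b, 13 higher and 5 lower for C5a, 2 and 31 for Epinephrine, 50 and 1 for EV-TNF, 49 and 1 for EV-IL1b, and 47 and 2 for EV-Epinephrine. Same-numbered libraries shared only a number, with correlations of their deviations from -0.0393 to 0.0259. Of 3461 values of named genes under alternatives, 3327 kept direction and side of the threshold, 80 lost the call, 53 gained it and 1 reversed. Calls held under every alternative in 51 of 53 genes for TNF, 49 of 50 for EV-TNF, 21 of 31 lowered by Epinephrine and 40 of 47 raised by EV-Epinephrine. Low counts limit RIGI and IRF9.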
